A study of Mus musculus with 4 samples.

Results

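The TNF superfamily comprises secreted or membrane-bound ligands and the receptors they engage. Members were chosen by name, as every gene whose symbol was Tnf or began with Tnfsf or Tnfrsf and a digit, and that had at least 20 unique molecular identifiers (UMIs, each standing for a captured RNA molecule) summed over all deposited matrices. Of the 33696 genes measured, 33 carried such a symbol and 29 met the minimum: 9 ligands, 19 receptors and the antisense transcript Tnfsf13os. Tnfrsf17, with 20 UMIs, lay just inside the limit. Tnfsf9 with 17, Tnfsf18 and Tnfrsf13c with 13 each and Tnfsf14 with 12 lay outside it.

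The study profiled nuclei from mouse cortex 21 days after photothrombotic (PT) injury, in which light activates a circulating dye and clots the vessels of a defined cortical spot. It compared wild-type mice (control) with Col1a2(creER); Cxcl12(flox) mice (Cxcl12-cKO), whose tamoxifen-inducible Cre is driven in cells that express the collagen gene Col1a2, mainly fibroblasts. Each genotype gave 1 library, pooled from 1 male and 1 female mouse, in which lesion and surrounding parenchyma carried different sample tags and were mixed by the authors at 75% and 25%. With 1 library per genotype there was no replicate library and no test between genotypes was possible, so every interval given here is a 95% counting interval, covers counting error only, and says nothing about other mice. The 4 matrices held 23489 barcodes, of which 21743 passed the filters (8095 and 7933 lesional nuclei and 2877 and 2838 parenchymal nuclei, control before Cxcl12-cKO), with medians of 2962 and 2975 UMIs per nucleus in the lesion and 15915 and 16648 in the parenchyma. The libraries shared 47 barcodes, and lesion and parenchyma of a library shared 0.

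The targeted gene went against the labels. Cxcl12 stood at 106 CPM (the standard sequencing scale, which divides a gene's UMIs by all UMIs of the same nuclei; 101–112) in lesional fibroblast-like nuclei of the library labelled control and at 217 CPM (209–224) in its counterpart labelled Cxcl12-cKO, which made the log2 ratio 1.03 (0.94–1.12). Counts from the 3′ end of a transcript check nothing about a deletion elsewhere in the gene, and the sources used here do not say which part is deleted. The genotypes are therefore named throughout by their labels.

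Nuclei were grouped by clustering in which the TNF superfamily genes took no part, and each cluster was named from marker genes. The same markers gave the names, so their sums describe the classes and are no check of them. In lesional fibroblast-like nuclei 7 fibroblast markers summed to 4312 and 3853 CPM. In the lesion 7 myeloid markers summed to 2482 and 1937 CPM in myeloid-like nuclei, and 6 astrocyte markers to 5239 and 6513 CPM in astrocyte-like nuclei. The fibroblast markers were higher in osteoblast-like nuclei, at 11329 and 9361 CPM. The largest fibroblast-like cluster, of 5172 nuclei, had 4 of these 7 raised. T cell-like nuclei, named from 3 of 7 markers, were less clear-cut, with 2476 and 2159 CPM of T cell markers beside 2063 and 1676 CPM of myeloid markers. The lesion held 4181 and 4119 fibroblast-like, 1793 and 2304 myeloid-like, 536 and 523 astrocyte-like, 504 and 235 excitatory neuron-like, 349 and 85 osteoblast-like, 122 and 104 T cell-like, 104 and 52 endothelial-like, and 73 and 101 oligodendrocyte precursor-like nuclei.

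TNF superfamily ligands act as trimers on the cell surface or after shedding, and their receptors either recruit death-domain proteins or bind TRAF adaptors that lead to NF-κB and stress kinases. Some receptors are decoys that hold ligand without passing on a signal. In injured brain the family is best known for TNF made by microglia and infiltrating leukocytes, whereas the RANK ligand, receptor and decoy are best known from bone, where they set the formation of osteoclasts.

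Together the 29 genes made up 35175 UMIs in the nuclei kept, or 0.0220% of all UMIs, and receptors (28724 UMIs) outnumbered ligands (5179 UMIs). Tnfrsf21 (7192 UMIs), Tnfrsf19 (7142) and Tnfrsf11a (5404) alone held 56.1% of the total. For 20 of the 25 members with at least 100 UMIs, the lesional class with the highest CPM, among those with at least 40 nuclei, was the same in both libraries. The count was 16 when classes were ranked by the share of nuclei with a UMI in a single draw of 1000 UMIs per nucleus. Neither count was made over all genes, and several of these leads rest on few UMIs, as given below. CPM is not scaled to transcript length, so levels are compared between cell classes and not between genes.

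**Figure D1:**
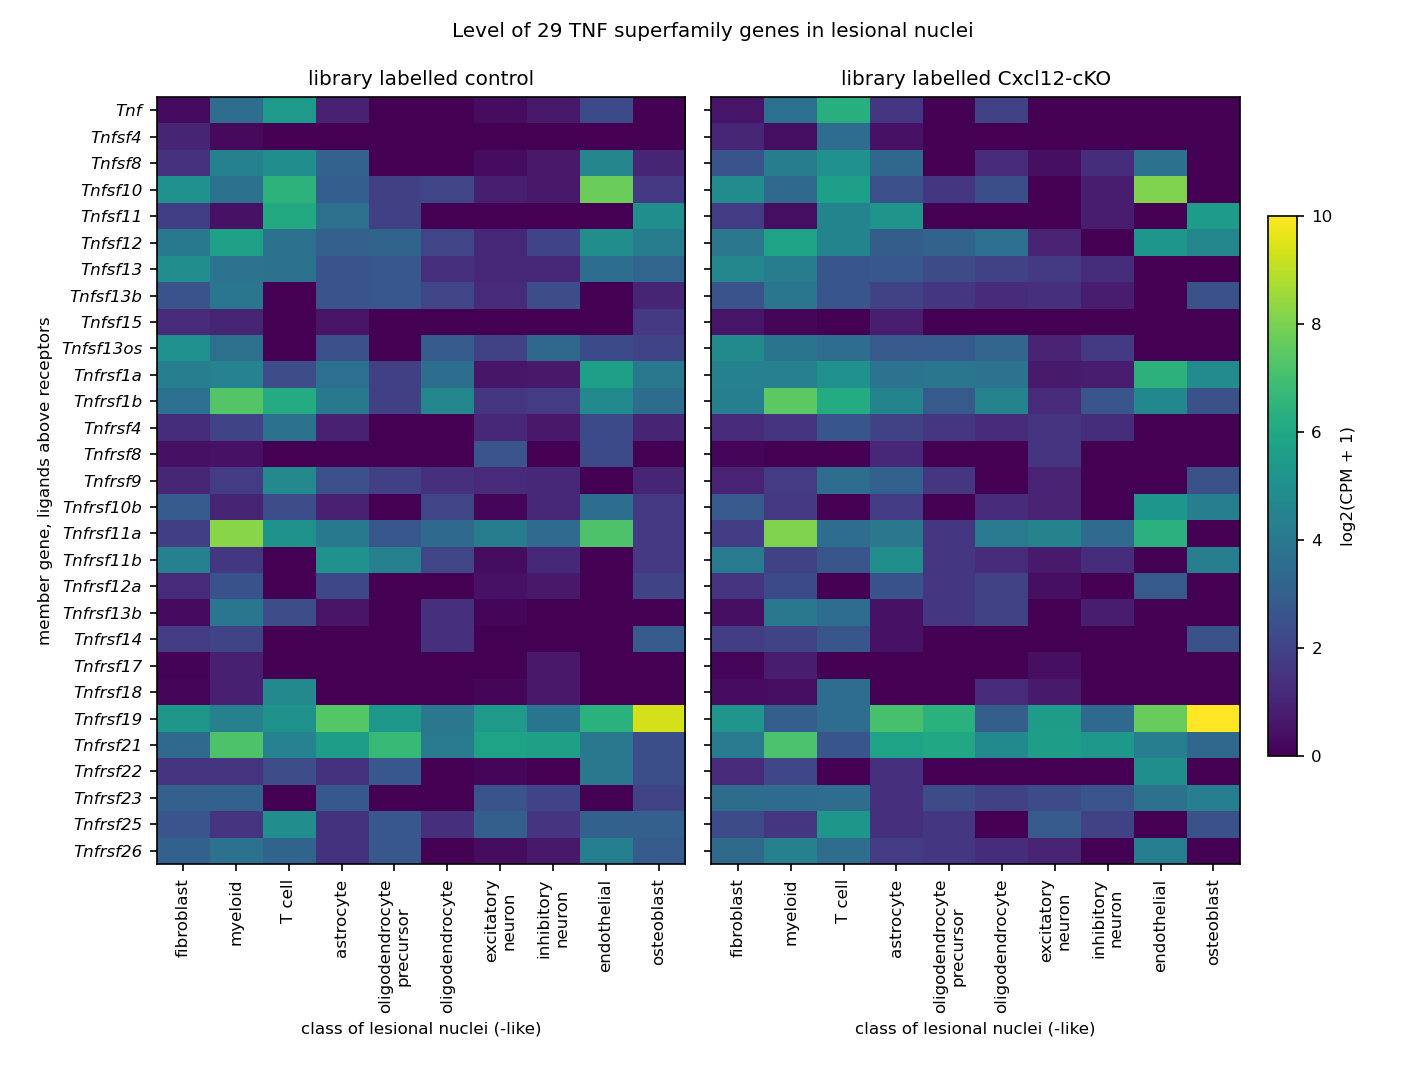
Level of each of the 29 TNF superfamily genes (vertical axis, ordered by role) in 10 lesional cell classes (horizontal axis), as log2(CPM + 1), with the library labelled control in the left panel and the library labelled Cxcl12-cKO in the right. The brightest cells are Tnfrsf19 in osteoblast-like nuclei (660 and 1031 CPM) and Tnfrsf11a in myeloid-like nuclei (295 and 267 CPM), and the panels show like patterns.

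Tnf, the founding cytokine of the family, was sparse, with 193 UMIs in all. In lesional T cell-like nuclei it stood at 41.8 CPM (20.03–76.8, from 10 UMIs) in the library labelled control and 75.9 CPM (41.5–127, from 14 UMIs) in that labelled Cxcl12-cKO. Myeloid-like nuclei followed at 11.04 (8.27–14.4) and 11.6 CPM (9.20–14.4), and fibroblast-like nuclei had 0.209 and 0.472 CPM. The intervals of T cell-like and myeloid-like nuclei did not overlap in either library.

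Tnfsf8, the ligand of CD30, had its highest CPM in T cell-like nuclei, at 29.2 and 32.6 CPM, against 20.2 and 18.02 CPM in myeloid-like nuclei. T cell-like and myeloid-like nuclei did not differ beyond their intervals. Endothelial-like nuclei lay between them in the library labelled control, at 22.6 CPM. In the single draw at equal depth, the share with a UMI was highest in myeloid-like nuclei (2.15%) of the library labelled Cxcl12-cKO. Astrocyte-like nuclei had 7.90 and 9.18 CPM and fibroblast-like nuclei 1.67 and 5.12 CPM.

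Tnfsf10, which encodes the death ligand TRAIL, was led by endothelial-like nuclei at 211 (159–274) and 264 CPM (191–355). T cell-like nuclei had 87.7 and 48.8 CPM, fibroblast-like nuclei 32.3 (29.5–35.4) and 27.3 (24.7–30.1), and myeloid-like nuclei 12.7 and 9.58. Endothelial-like nuclei stood apart from every other named class by more than counting error in both libraries. Another cluster with endothelial genes, left unnamed, had 81.3 (48.9–127) and 131 CPM (76.0–209), and its interval overlapped theirs in the library labelled Cxcl12-cKO.

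Tnfsf12, the ligand TWEAK, and Tnfsf13b, the B cell survival factor BAFF, were highest in myeloid-like nuclei. Tnfsf12 stood at 52.3 (46.0–59.2) and 54.1 CPM (48.7–59.8) there and at 15.5 and 14.7 CPM in fibroblast-like nuclei. Tnfsf13b had 14.2 CPM in myeloid-like nuclei of each library and 4.95 and 4.92 CPM in fibroblast-like nuclei.

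Tnfsf13, the BAFF relative APRIL, was led by fibroblast-like nuclei, at 28.98 (26.3–31.9) and 23.9 CPM (21.5–26.5) against 13.1 and 17.4 CPM in myeloid-like nuclei. The antisense transcript Tnfsf13os ran alongside it, at 31.1 and 26.1 CPM in fibroblast-like and 12.1 and 13.6 CPM in myeloid-like nuclei. The sources used here do not state whether counting used strand, and without strand the reads of Tnfsf13 and its antisense partner cannot be told apart. Tnfsf4, the ligand of OX40, and Tnfsf15, the ligand of DR3, had only 56 and 41 UMIs in the nuclei kept and stood at no more than 1.08 and 1.32 CPM in fibroblast-like nuclei.

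Among the receptors, Tnfrsf1b, Tnfrsf11a, Tnfrsf13b and Tnfrsf21 were led by myeloid-like nuclei in both libraries. With Tnfsf12 and Tnfsf13b they made up the 6 myeloid-led members, other than Tnfrsf17 with its 20 UMIs. Of these, 5 had a promoter in the RefSeq sequences used here (6 promoters), each spanning 250 bases before to 50 bases after the transcription start in the build GRCm38.p6, which is not the build of the count matrices (GRCm39). The promoters of the 3 myeloid-led receptors with the most UMIs are shown on their own strands, with the GAGGAA core bound by the myeloid factor PU.1 in capitals wherever it occurs on either strand (read as TTCCTC on the opposite strand).
Tnfrsf1b, chr4:145246821-145247120, minus strand: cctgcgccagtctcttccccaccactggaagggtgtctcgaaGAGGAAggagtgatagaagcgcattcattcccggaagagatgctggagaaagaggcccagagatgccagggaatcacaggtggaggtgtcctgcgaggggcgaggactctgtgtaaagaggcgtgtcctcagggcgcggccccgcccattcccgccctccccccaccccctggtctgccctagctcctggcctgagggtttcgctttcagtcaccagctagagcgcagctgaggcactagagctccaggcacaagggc
Tnfrsf11a, chr1:105780473-105780772, plus strand: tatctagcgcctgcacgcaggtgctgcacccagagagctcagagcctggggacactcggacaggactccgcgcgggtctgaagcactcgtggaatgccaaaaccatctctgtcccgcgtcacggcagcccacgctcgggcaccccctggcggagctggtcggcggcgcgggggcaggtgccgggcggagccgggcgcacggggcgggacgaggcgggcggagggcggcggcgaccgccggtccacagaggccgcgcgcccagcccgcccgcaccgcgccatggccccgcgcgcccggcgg
Tnfrsf21, chr17:43016305-43016604, plus strand: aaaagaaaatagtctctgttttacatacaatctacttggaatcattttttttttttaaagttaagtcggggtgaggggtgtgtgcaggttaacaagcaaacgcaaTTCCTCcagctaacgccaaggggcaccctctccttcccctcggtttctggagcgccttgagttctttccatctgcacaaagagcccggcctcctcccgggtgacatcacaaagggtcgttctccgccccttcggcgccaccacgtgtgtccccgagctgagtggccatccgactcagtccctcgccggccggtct
The core occurred in 2 of the 6 promoters of myeloid-led members, those of Tnfrsf1b and Tnfrsf21, in 8 of the 26 promoters matched to 22 members, and in 28.3% of all 32851 promoters in the table. A match is a description of the letters and not evidence of binding.

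Tnfrsf1b, which encodes the TNF receptor TNFR2 of leukocytes, stood at 159 (148–170) and 177 CPM (167–187) in lesional myeloid-like nuclei, from 761 and 1236 UMIs. T cell-like nuclei had 71.0 and 70.5 CPM, astrocyte-like nuclei 15.4 and 21.6, fibroblast-like nuclei 11.7 and 18.8, and excitatory neuron-like nuclei 1.98 and 1.28. A UMI was seen in 28.6% (26.5–30.7) and 34.1% (32.2–36.1) of lesional myeloid-like nuclei at a median of 2174 and 2376 UMIs per nucleus. In parenchymal excitatory neuron-like nuclei, taken as the background at a median of 17478 and 18391 UMIs, the share was 0.831% and 1.27%. At 1000 UMIs per nucleus the shares were 14.3% and 16.1% against 0.0476% and 0.127%.

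Tnfrsf1a, which encodes the more widely expressed death-domain receptor TNFR1, had a flatter distribution. It was highest in endothelial-like nuclei at 48.9 (26.1–83.7, from 13 UMIs) and 85.8 CPM (46.9–144, from 14 UMIs), and lay at 20.6 and 19.3 CPM in myeloid-like, 18.3 and 19.9 in fibroblast-like and 11.4 and 13.2 in astrocyte-like nuclei. Myeloid-like and fibroblast-like nuclei did not differ beyond their intervals. Excitatory neuron-like nuclei had 0.528 and 0.638 CPM.

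Tnfrsf21, the death receptor DR6 known from neurons and glia, stood at 146 (135–157) and 142 CPM (133–151) in myeloid-like nuclei. Oligodendrocyte precursor-like nuclei had 105 and 62.5 CPM, excitatory neuron-like nuclei 54.6 and 46.0, inhibitory neuron-like nuclei 50.4 and 39.3 and astrocyte-like nuclei 47.0 and 54.3. Fibroblast-like nuclei were far lower, at 9.61 and 16.0 CPM. At 1000 UMIs per nucleus the gene was seen in 13.4% and 13.2% of lesional myeloid-like nuclei and in 4.49% and 4.18% of parenchymal excitatory neuron-like nuclei.

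Tnfrsf13b, which encodes the BAFF and APRIL receptor TACI of B cells, stood at 14.2 (11–17.96) and 14.9 CPM (12.2–18.02) in myeloid-like nuclei (68 and 104 UMIs). Fibroblast-like nuclei had 0.209 and 0.337 CPM, and T cell-like nuclei 4.18 and 10.9 CPM from 1 and 2 UMIs. Tnfrsf17, the related receptor BCMA, had only 4 and 5 UMIs in the same myeloid-like nuclei.

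Tnfrsf19, the orphan receptor TROY, was led by osteoblast-like nuclei in both libraries. They held 660 (610–714, from 622 UMIs) and 1031 CPM (901–1174, from 226 UMIs), and a UMI was seen in 67.3% and 62.4% of them. Astrocyte-like nuclei had 163 (147–181) and 136 CPM (122–151), endothelial-like nuclei 82.8 and 202, excitatory neuron-like nuclei 41.4 and 43.4, fibroblast-like nuclei 38.1 and 36.2 and myeloid-like nuclei 19.6 and 7.15. The osteoblast-like nuclei, which also carried 11329 and 9361 CPM of the 7 fibroblast markers, were named from Bglap, Bglap2 and Sp7 among their leading genes. Only 3 of the 7 osteoblast markers were raised in them. The 7 summed to 448 and 506 CPM, with 2 at zero in each library.

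The mouse TRAIL receptors and the related Tnfrsf26 were spread over several classes. Tnfrsf10b, the signalling TRAIL receptor, had 6.48 and 6.00 CPM in fibroblast-like nuclei, and its endothelial-like lead of 11.3 and 36.8 CPM rested on 3 and 6 UMIs. Tnfrsf26 stood at 18.8 and 18.4 CPM in endothelial-like (5 and 3 UMIs), 12.5 and 19.7 CPM in myeloid-like and 7.59 and 9.84 CPM in fibroblast-like nuclei. The decoy receptor Tnfrsf22 had 15.1 and 30.6 CPM in endothelial-like nuclei, from 4 and 5 UMIs, and 1.88 and 1.35 CPM in fibroblast-like nuclei. Tnfrsf23, the other decoy, had 7.45 and 10.5 CPM in fibroblast-like and 7.50 and 10.3 CPM in myeloid-like nuclei. The values of Tnfrsf22 and Tnfrsf23 are uncertain, because 17.3% of the 50-base windows in the transcripts of Tnfrsf22 and 18.01% of those of Tnfrsf23 were identical between the 2 genes.

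The costimulatory receptors of lymphocytes were led by T cell-like nuclei on few UMIs. Tnfrsf9, or CD137, had 25.1 and 10.9 CPM (6 and 2 UMIs), Tnfrsf4, or OX40, 12.5 and 5.42 CPM (3 and 1 UMIs), and Tnfrsf18, or GITR, 25.1 and 10.9 CPM (6 and 2 UMIs). Tnfrsf25, the receptor DR3, stood at 29.2 and 37.97 CPM there (7 UMIs each) and at 7.12 and 6.38 CPM in excitatory neuron-like nuclei. Tnfrsf8, or CD30, instead had its highest CPM in excitatory neuron-like nuclei, at 5.28 (3.77–7.18) and 1.92 CPM (0.703–4.17). These values rest on 40 UMIs, 16 of them from 1 nucleus, in the library labelled control and on 6 UMIs in the other. In the single draw at equal depth, the share with a UMI was highest in fibroblast-like (0.0246%, control) and astrocyte-like nuclei (0.192%, Cxcl12-cKO). Tnfrsf14, or HVEM, had 3.13 and 3.15 CPM in myeloid-like and 2.30 and 2.49 CPM in fibroblast-like nuclei, and Tnfrsf12a, the TWEAK receptor, 4.79 and 3.72 CPM in myeloid-like nuclei.

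The RANK axis was spread over separate cell classes. Tnfrsf11a, which encodes the receptor RANK (ENSMUSG00000026321), stood at 295 (280–311, from 1417 UMIs) and 267 CPM (255–280, from 1869 UMIs) in lesional myeloid-like nuclei. Endothelial-like nuclei had 147 and 79.7 CPM from 39 and 13 UMIs, excitatory neuron-like nuclei 17.8 and 21.4, astrocyte-like nuclei 15.4 and 14.8 and fibroblast-like nuclei 2.58 and 2.49 CPM. A UMI was seen in 44.8% (42.5–47.1) and 43.8% (41.8–45.9) of lesional myeloid-like nuclei, and at 1000 UMIs per nucleus in 25.0% and 22.7%, against 1.81% and 2.00% of parenchymal excitatory neuron-like nuclei.

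Tnfsf11, which encodes the ligand RANKL (ENSMUSG00000022015), was rare, with 257 UMIs in all. T cell-like nuclei held 66.8 (38.2–109, from 16 UMIs) and 21.7 CPM (5.91–55.6, from 4 UMIs), osteoblast-like nuclei 30.8 (20.6–44.2) and 45.6 (21.9–83.9), and astrocyte-like nuclei 11.9 (7.81–17.2, from 27 UMIs) and 34.7 (27.8–42.9, from 87 UMIs). Fibroblast-like nuclei had 2.65 and 2.36 CPM. No UMI was seen in 504 and 235 lesional excitatory neuron-like nuclei, which allows up to 0.729% and 1.56% of nuclei with a UMI.

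Tnfrsf11b, which encodes osteoprotegerin, the soluble decoy for RANKL and TRAIL (ENSMUSG00000063727), was highest in astrocyte-like nuclei. Astrocyte-like nuclei had 32.5 (25.5–40.8) and 29.6 CPM (23.2–37.1) from 74 UMIs in each library. Fibroblast-like nuclei had 19.4 (17.2–21.8) and 16.4 CPM (14.4–18.6), and excitatory neuron-like nuclei 0.264 and 0.638. Second in order were oligodendrocyte precursor-like nuclei in the library labelled control, at 19.4 CPM, and osteoblast-like nuclei in that labelled Cxcl12-cKO, at 18.2 CPM. The ligand and its decoy were thus both measured in astrocyte-like nuclei, whereas the receptor was highest in myeloid-like nuclei. Markers of osteoclasts, the cells that RANK signalling is known to form, summed to 778 and 1046 CPM over 6 genes in the same myeloid-like nuclei, with 0 of the 6 at zero, and their part in these levels was not tested.

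**Figure D2:**
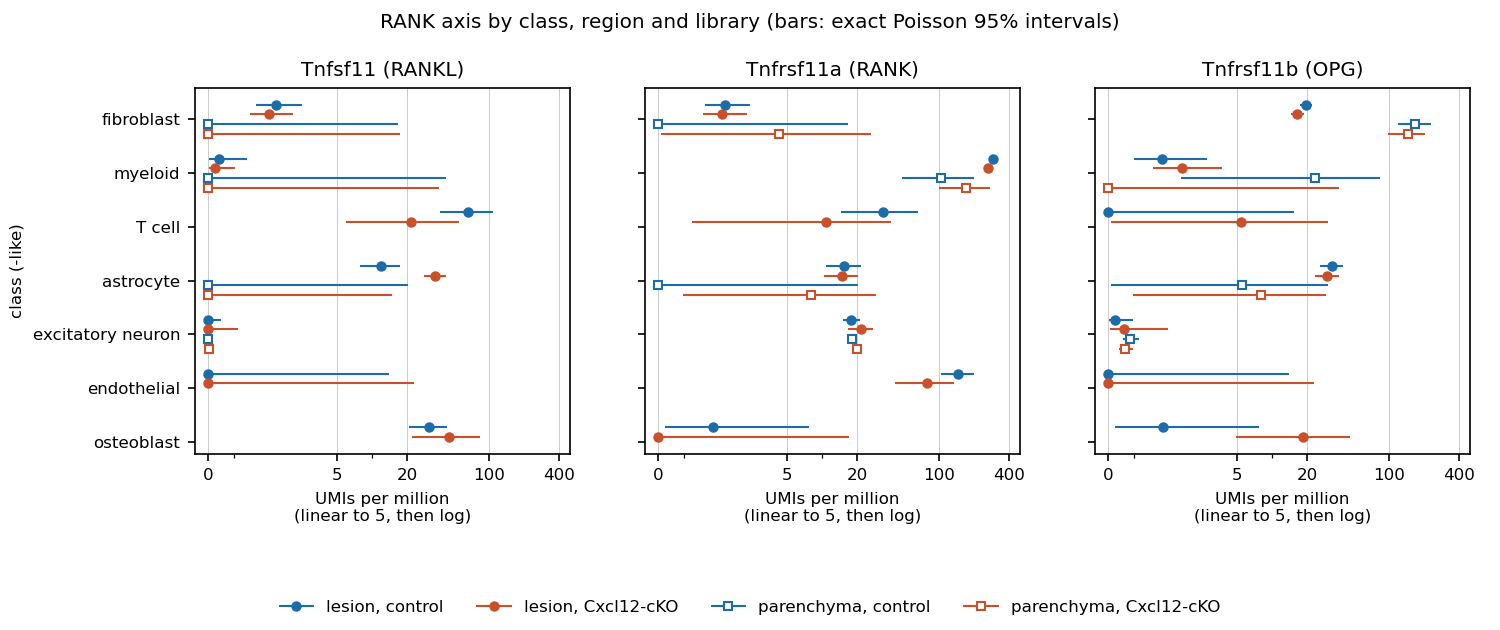
Level in CPM (horizontal axis, linear up to 5 and logarithmic above) of Tnfsf11, Tnfrsf11a and Tnfrsf11b by cell class (vertical axis), with 95% Poisson intervals as bars. Filled points are lesion and open points parenchyma, blue is the library labelled control and orange that labelled Cxcl12-cKO, and the Tnfrsf11b points of parenchymal fibroblast-like nuclei (170 and 145 CPM) stand to the right of the lesional ones (19.4 and 16.4 CPM).

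The lesional fibroblast-like nuclei fell into 5 subclusters, again without use of the TNF superfamily genes. They were named from marker lists as late inner-like (972 nuclei labelled control and 1280 labelled Cxcl12-cKO), dural or dural border-like (1155 and 895), leptomeningeal-like (382 and 480) and dividing (20 and 37). The largest subcluster (1652 and 1427), led by Sptssb and Trpm3, was not named. The few dividing nuclei are left out of the orders that follow.

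Tnfsf10 and Tnfrsf11b were highest in the dural or dural border-like subcluster. Tnfsf10 stood at 56.2 (49.7–63.3) and 50.3 CPM (43.1–58.3) there, at 21.1 and 35.8 CPM in leptomeningeal-like and at 30.6 and 18.1 CPM in unnamed nuclei. Tnfrsf11b had 33.5 (28.5–39.1) and 34.0 CPM (28.2–40.7) in dural or dural border-like nuclei, 12.4 and 12.1 in late inner-like, 14.0 and 12.3 in unnamed and 5.08 and 5.21 in leptomeningeal-like nuclei. The order of the Tnfrsf11b levels put the dural or dural border-like subcluster first in both libraries, beyond counting error.

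Tnfrsf19 and Tnfrsf21 were highest in the leptomeningeal-like subcluster. Tnfrsf19 stood at 126 (107–148) and 94.5 CPM (79.7–111) there, against 43.2 and 31.6 in late inner-like, 42.4 and 46.0 in unnamed and 7.70 and 5.71 CPM in dural or dural border-like nuclei. Tnfrsf21 had 63.4 (49.9–79.5) and 89.3 CPM (74.9–106) in leptomeningeal-like nuclei and no more than 11.5 CPM in the late inner-like, unnamed and dural or dural border-like nuclei. Tnfrsf1b (24.5 and 33.2 CPM) and Tnfrsf26 (15.2 and 28.01 CPM) also had their highest level in this subcluster, although their intervals overlapped those of late inner-like nuclei for Tnfrsf1b (17.1 and 25.9 CPM) and, in the library labelled control, of unnamed nuclei for Tnfrsf26 (12.8 CPM).

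Tnfsf13 was highest in the unnamed subcluster at 44.2 and 35.0 CPM, close to the 33.7 CPM of dural or dural border-like nuclei in the library labelled Cxcl12-cKO. Late inner-like nuclei had 10.3 CPM in each library. In turn, late inner-like nuclei led for Tnfrsf23 at 16.2 and 16.6 CPM and for Tnfrsf25 at 12.4 and 6.52 CPM.

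Within the late inner-like subcluster Tnfsf10 differed between the libraries. It stood at 4.35 CPM (2.38–7.30), from 14 UMIs in 14 nuclei, in the library labelled control and at 16.8 CPM (13.4–20.8), from 85 UMIs in 57 nuclei, in that labelled Cxcl12-cKO. The log2 ratio was 1.91 (1.12–2.88). Of the levels given above, that of leptomeningeal-like nuclei was also higher in the library labelled Cxcl12-cKO. Those of unnamed and of dural or dural border-like nuclei were lower there. The share of all genes that differed as much within the late inner-like subcluster was not computed. In all fibroblast-like nuclei the log2 ratio of Tnfsf10 was −0.24 (−0.44 to −0.05).

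**Figure D3:**
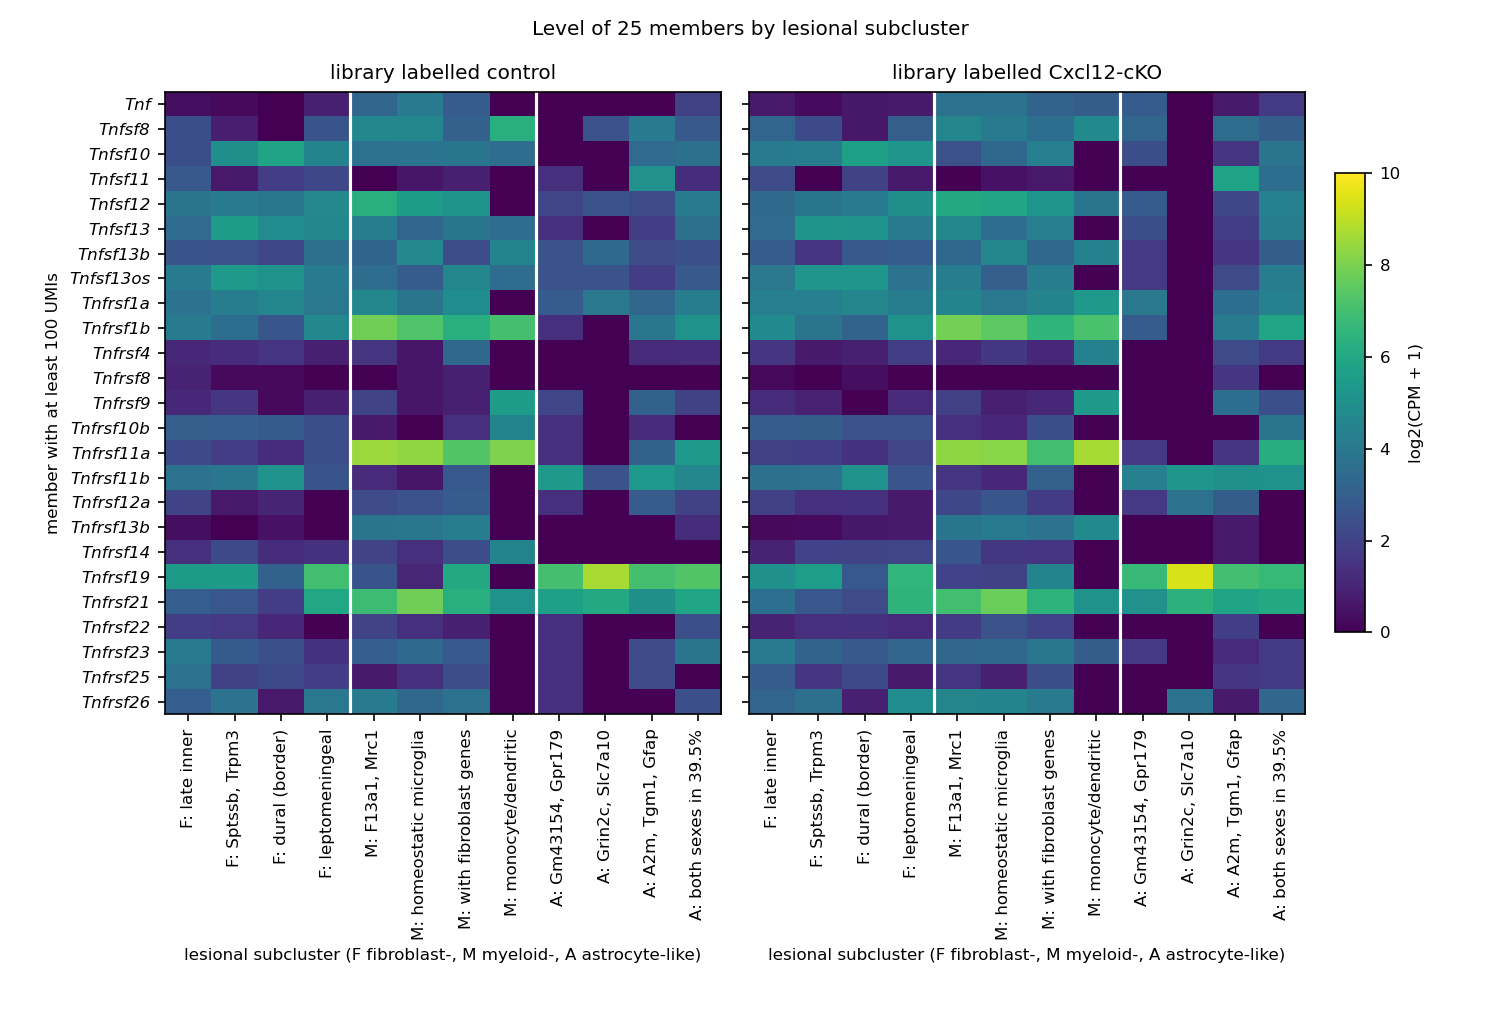
Level, as log2(CPM + 1), of the 25 members with at least 100 UMIs (vertical axis) in subclusters of lesional fibroblast-like, myeloid-like and astrocyte-like nuclei (horizontal axis, 4 of each), with the library labelled control and that labelled Cxcl12-cKO apart. Tnfrsf21 stands out in leptomeningeal-like fibroblast nuclei (63.4 and 89.3 CPM) and Tnfsf11 in astrocyte subcluster 3 (32.1 and 54.4 CPM).

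Myeloid-like nuclei held a subcluster led by F13a1 and Mrc1, which was not named (643 and 907 nuclei), a homeostatic microglia-like subcluster (817 and 958), a monocyte or dendritic-like subcluster (44 and 68), dividing nuclei (20 and 51) and a subcluster with all 7 fibroblast markers raised (269 and 320). In this last subcluster 28.3% and 31.3% of nuclei carried UMIs of both Xist and a Y-linked gene, against 7.78% and 8.93% in the first, a mark of nuclei of 2 mice under 1 barcode. Tnfrsf11a was high in the microglia-like (326 and 298 CPM) and the F13a1 and Mrc1 subclusters (364 and 311 CPM) alike.

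Tnfrsf21 and Tnfsf13b were highest in microglia-like nuclei. Tnfrsf21 stood at 228 (207–251) and 208 CPM (190–227) there, at 114 and 126 CPM in F13a1 and Mrc1 nuclei and at 33.1 and 33.3 CPM in monocyte or dendritic-like nuclei. Tnfsf13b had 24.9 and 22.9 CPM in microglia-like nuclei against 8.31 and 9.23 CPM in F13a1 and Mrc1 nuclei. Tnfrsf1b went the other way, with 230 and 237 CPM in F13a1 and Mrc1 nuclei and 152 and 175 CPM in microglia-like nuclei. Tnfsf12 was higher in F13a1 and Mrc1 nuclei of the library labelled control (79.3 against 45.6 CPM) and near-level in the other (64.3 against 58.3 CPM).

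Astrocyte-like nuclei of the lesion fell into 4 subclusters, and Tnfsf11 lay in 1 of them. The subcluster led by A2m, Tgm1, Chil1 and Gfap (174 and 297 nuclei) held 25 of the 27 control-labelled and 82 of the 87 Cxcl12-cKO-labelled Tnfsf11 UMIs of astrocyte-like nuclei, or 32.1 CPM (20.8–47.3) and 54.4 CPM (43.3–67.5). The subcluster led by Grin2c and Slc7a10 (58 and 19 nuclei) had 0 UMIs in either library. That subcluster instead held the highest Tnfrsf19 of the astrocyte-like nuclei, at 417 and 664 CPM against 132 and 127 CPM in the A2m and Gfap subcluster.

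The comparison of genotypes asked which genes differed in the lesion when Cre was directed to fibroblasts with a floxed Cxcl12. A gene entered with at least 40 UMIs summed over both libraries in a class, and a difference of at least 1.5-fold in CPM was counted. In fibroblast-like nuclei 3 of 21 members passed, all higher in the library labelled Cxcl12-cKO, where 6.96% of all 14938 genes passed in either direction. The median log2 ratio was −0.07 over the members and 0.01 over all genes.

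**Figure D4:**
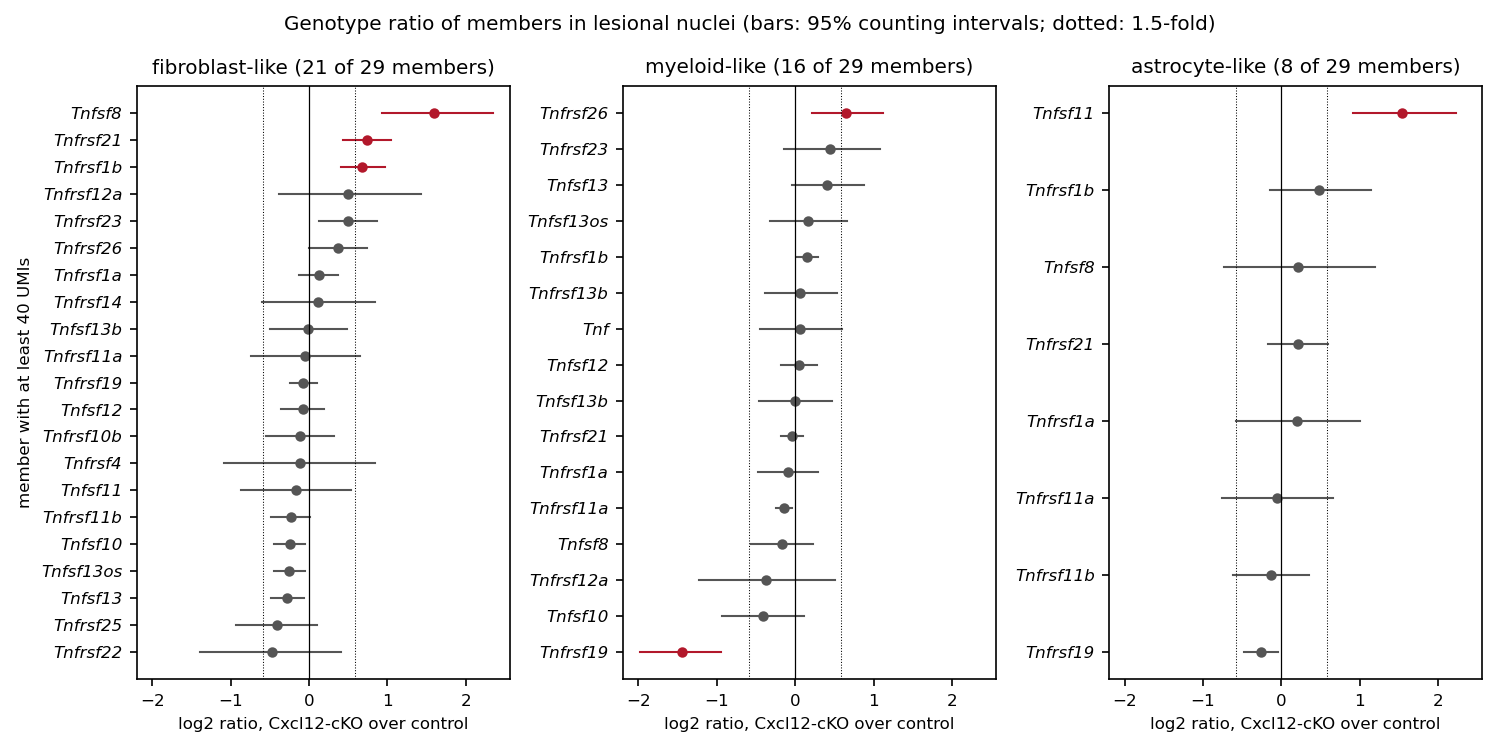
Log2 ratio of CPM in the library labelled Cxcl12-cKO over that labelled control (horizontal axis) for the members with at least 40 UMIs in lesional fibroblast-like (21), myeloid-like (16) and astrocyte-like (8) nuclei, with 95% counting intervals as bars. Red points lie past the dotted lines at 1.5-fold, namely Tnfsf8, Tnfrsf1b and Tnfrsf21 in fibroblast-like, Tnfrsf19 and Tnfrsf26 in myeloid-like and Tnfsf11 in astrocyte-like nuclei.

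Tnfsf8 had the largest ratio of the members in fibroblast-like nuclei. It rested on 24 UMIs from 19 control-labelled nuclei and 76 UMIs from 57 nuclei labelled Cxcl12-cKO, with at most 4 UMIs in a nucleus. The levels of 1.67 (1.07–2.49) and 5.12 CPM (4.03–6.41) gave a log2 ratio of 1.59 (0.94–2.34). The ratio was 1.89 in female mice (7 and 24 UMIs) and 1.09 in male mice (14 and 33 UMIs). Its level was higher in each of the late inner-like (4.35 and 8.70 CPM), unnamed (0.790 and 3.74), dural or dural border-like (0 and 0.571) and leptomeningeal-like (5.08 and 7.17) subclusters. These values divide the 24 and 76 UMIs between subclusters and are given without intervals, so no weight is put on each direction. The share of nuclei with a UMI was 0.454% and 1.38%, against 0.185% and 0.342% of the deeper parenchymal excitatory neuron-like nuclei, and at 1000 UMIs per nucleus 0.141% and 0.463%, against 0.0106% and 0.0185%.

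Tnfrsf1b stood at 11.7 (10.0–13.6) and 18.8 CPM (16.7–21.1), a log2 ratio of 0.68 (0.40–0.97). It was 1.19 in female and 0.53 in male mice, and the mean over nuclei of their own CPM gave 0.32, which is under the 1.5-fold limit. Tnfrsf21 stood at 9.61 (8.08–11.4) and 16.0 CPM (14.1–18.2), a log2 ratio of 0.74 (0.43–1.05), and the female and male mice gave 1.82 and 0.10. In the leptomeningeal-like subcluster, where Tnfrsf21 was highest, the log2 ratio was 0.49 and under the limit. That subcluster held 116 and 227 nuclei of the female mice, out of 1735 and 1454 fibroblast-like ones, and 172 and 126 of the male mice, out of 1553 and 1599. The part of this shift in the Tnfrsf21 ratio was not tested. Fibroblast-like nuclei also held 41.3 and 46.5 CPM of 7 myeloid markers, 0 of them at zero, and 4.95 and 3.71 CPM of 7 T cell markers, with 2 and 0 at zero, and the part of carried-over leukocyte RNA was not tested.

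The other members with at least 40 UMIs in fibroblast-like nuclei differed by less than 1.5-fold. Members under that minimum were not counted, and some of them differed by more, such as Tnfsf15 at 1.32 and 0.472 CPM from 19 and 7 UMIs. The values included Tnfsf13 with a log2 ratio of −0.28 (−0.49 to −0.07), Tnfsf12 with −0.08 (−0.36 to 0.19), Tnfrsf1a with 0.12 (−0.12 to 0.37), Tnfrsf11b with −0.24 (−0.49 to 0.02) and Tnfrsf19 with −0.07 (−0.25 to 0.10). For Tnfrsf19 the female mice gave 0.53 and the male mice −0.40.

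In myeloid-like nuclei 2 of 16 members passed, against 7.37% of 12923 genes, and the medians were 0.02 and −0.02. Tnfrsf26 stood at 12.5 (9.54–16.1) and 19.7 CPM (16.6–23.3), a log2 ratio of 0.65 (0.21–1.12), with 0.68 in female and 0.24 in male mice. Tnfrsf19 stood at 19.6 and 7.15 CPM, a log2 ratio of −1.45 (−1.98 to −0.94). Of its 94 and 50 UMIs, 81 and 35 lay in the subcluster with fibroblast markers, and without that subcluster, in an alternative added after the data were seen, the ratio was −0.38. The fibroblast markers in myeloid-like nuclei summed to 1102 and 685 CPM.

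The myeloid-led receptors with the most UMIs differed little. The log2 ratio was −0.14 (−0.24 to −0.04) for Tnfrsf11a, 0.16 (0.02–0.29) for Tnfrsf1b and −0.05 (−0.19 to 0.10) for Tnfrsf21. Tnf, with 53 and 81 UMIs, gave 0.06 (−0.45 to 0.60).

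In astrocyte-like nuclei 1 of 8 members passed, against 11.3% of 10384 genes, and the medians were 0.21 and −0.03. That member was Tnfsf11, at 11.9 (7.81–17.2) and 34.7 CPM (27.8–42.9), a log2 ratio of 1.53 (0.91–2.23). UMIs were seen in 20 of 536 and 50 of 523 nuclei, or 3.73% (2.29–5.70) and 9.56% (7.18–12.4), and at 1000 UMIs per nucleus in 0.928% and 2.75%. Parenchymal excitatory neuron-like nuclei had 0 and 1 UMI. The log2 ratio was 1.26 in female and 1.38 in male mice. The A2m and Gfap subcluster made up 32.5% and 56.8% of astrocyte-like nuclei in the libraries labelled control and Cxcl12-cKO, and within it the ratio was 0.74 (0.10–1.47). Astrocyte-like nuclei also held 10.5 and 8.39 CPM of 7 osteoblast markers, 7.02 and 3.59 CPM of 7 T cell markers and 904 and 345 CPM of 7 fibroblast markers, and their part in the Tnfsf11 level was not tested. The decoy Tnfrsf11b differed less, with a log2 ratio of −0.14 (−0.62 to 0.35) in astrocyte-like nuclei.

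**Figure D5:**
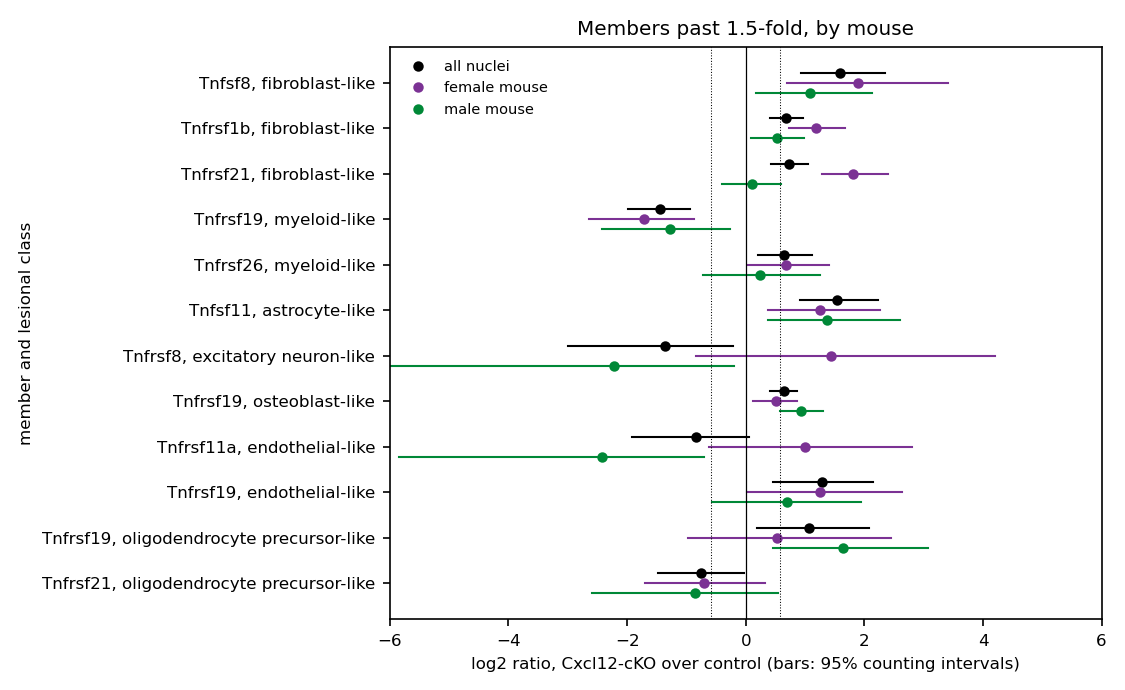
Log2 ratio of CPM in the library labelled Cxcl12-cKO over that labelled control (horizontal axis) for the 12 pairs of member and class past 1.5-fold, over all nuclei (black) and over nuclei assigned to the female (purple) or male (green) mice, with 95% counting intervals as bars cut at −6. Tnfsf8 in fibroblast-like nuclei (1.89 and 1.09) and Tnfsf11 in astrocyte-like nuclei (1.26 and 1.38) lie on the same side in both sexes, whereas Tnfrsf8 in excitatory neuron-like (1.44 and −2.21) and Tnfrsf11a in endothelial-like nuclei (1.00 and −2.42) do not.

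Smaller classes gave few members. In excitatory neuron-like nuclei 1 of 6 passed, against 8.32% of genes, and this was Tnfrsf8, whose 40 UMIs in the library labelled control included 16 from a single nucleus, against 6 in the other library. In osteoblast-like nuclei Tnfrsf19 was the only member tested and passed, against 19.1% of genes, with a log2 ratio of 0.64 (0.42–0.86), 0.51 in female and 0.94 in male mice, and −0.05 when nuclei were classed by their own markers. In endothelial-like nuclei 2 of 3 passed, against 17.2%: Tnfrsf19 at 82.8 and 202 CPM (log2 ratio 1.28, 0.47–2.14) and Tnfrsf11a at 147 and 79.7 CPM (−0.85, −1.91 to 0.05), whereas Tnfsf10 gave 0.33 (−0.29 to 0.92). In oligodendrocyte precursor-like nuclei both members tested passed, against 16.5%, with 1.06 (0.19–2.08) for Tnfrsf19 and −0.75 (−1.48 to −0.03) for Tnfrsf21, and 15 of the 41 Tnfrsf19 UMIs in the library labelled Cxcl12-cKO came from 1 nucleus. In inhibitory neuron-like nuclei 0 of 1 passed, against 19.5%, and no member had 40 UMIs in T cell-like or oligodendrocyte-like nuclei.

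Across all 58 pairs of member and class tested, the female and male mice gave the same direction in 34 and opposite directions in 24. The share with the same direction over all genes was not computed, so nothing is read from this count. With 1 mouse of each sex per genotype, mouse and sex cannot be told apart.

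The comparison of regions asked how the members differed between lesion and surrounding parenchyma within a library. Fibroblast-like nuclei of the parenchyma were few, at 51 and 50. Of 14 members with at least 40 UMIs over both regions in the library labelled control, 11 were past 1.5-fold, against 51.5% of genes, and of 15 in that labelled Cxcl12-cKO, 10 were, against 53.6%. Members other than Tnfrsf11b had 0 to 13 parenchymal UMIs and met the minimum through the lesion, so nothing is read from these counts. The ratios of those at 0 (6 and 3 members) rest on the 0.5 counts added before the ratio was taken and are no bound. Tnfrsf11b alone had at least 20 UMIs in each region, a minimum added after the data were seen.

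Tnfrsf11b was lower in lesional than in parenchymal fibroblast-like nuclei in both libraries. Parenchymal nuclei held 170 CPM (120–233), from 38 UMIs in 20 of 51 nuclei, in the library labelled control and 145 CPM (98.8–206), from 31 UMIs in 18 of 50 nuclei, in that labelled Cxcl12-cKO. Against 19.4 and 16.4 CPM in the lesion these were 8.87-fold and 8.97-fold higher, or log2 ratios of lesion over parenchyma of −3.15 (−3.63 to −2.60) and −3.17 (−3.69 to −2.56). At clustering resolution 0.5 the ratio in the library labelled control was −4.38. The gene ranked 22 from the lowest among 2301 genes with at least 20 UMIs in each region and 21 among 2230, where 3.43% and 3.23% of genes were lower in the lesion by 4-fold or more. It met that minimum in the parenchyma, where it is high, with 38 and 31 UMIs. Nothing is therefore read from the rank or from these shares. The share of nuclei with a UMI was 39.2% (25.8–53.9) and 36.0% (22.9–50.8) in the parenchyma and 4.52% and 4.39% in the lesion. At 1000 UMIs per nucleus it was 12.7% and 11.3% against 1.52% and 1.39%.

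All 51 and 48 of the 50 parenchymal fibroblast-like nuclei belonged to a single cluster, and within it the lesional level was 22.9 CPM in each library against 170 and 153 CPM in the parenchyma. The parenchymal nuclei carried 1229 and 1210 CPM of the 7 fibroblast markers, against 4312 and 3853 CPM in the lesion, and 4759 and 4243 CPM of 6 dural or dural border markers, against 3926 and 3192 CPM. The lesional dural or dural border-like subcluster, at 33.5 and 34.0 CPM of Tnfrsf11b, was also below the parenchymal nuclei. Markers of astrocytes, which express Tnfrsf11b in the lesion, summed to 545 and 755 CPM over 6 genes in parenchymal fibroblast-like nuclei, with 2 and 1 at zero, and to 559 and 658 CPM in the lesional ones. Parenchymal astrocyte-like nuclei themselves had 5.45 and 8.03 CPM of Tnfrsf11b, from 1 and 2 UMIs.

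Astrocyte-like nuclei could be compared in the library labelled Cxcl12-cKO alone, which had 46 of them in the parenchyma. All 5 members with 40 UMIs over both regions were past 1.5-fold, against 50.4% of genes, but 2 had no parenchymal UMI and another had 2, so they met the minimum through the lesion and nothing is read from the count. Tnfsf11 had 87 UMIs in the lesion (34.7 CPM) and 0 in the parenchyma, where 3 counts would be 12.04 CPM, and Tnfrsf1b 54 UMIs (21.6 CPM) and 0. Tnfrsf11b stood at 29.6 against 8.03 CPM (log2 ratio 1.57, −0.02 to 4.95) and Tnfrsf21 at 54.3 against 20.1 CPM (1.30, 0.18–3.08). Tnfrsf19 was the only one lower in the lesion, at 136 against 221 CPM, with a log2 ratio of −0.71 (−1.11 to −0.26), and it stood at 163 in the lesion and 327 CPM in the parenchyma of the library labelled control, from 372 and 60 UMIs.

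Excitatory neuron-like nuclei carried Tnfrsf21, Tnfrsf19, Tnfrsf11a, Tnfrsf25 and Tnfrsf23 in both regions. Of 11 and 12 members tested 3 and 4 were past 1.5-fold, against 29.7% and 32.1% of genes. The 4 in the library labelled Cxcl12-cKO had 1 to 12 lesional UMIs and met the minimum through the parenchyma. Nothing is therefore read from these counts. In the parenchyma Tnfrsf21 stood at 43.5 and 40.8 CPM, Tnfrsf19 at 42.0 and 42.1, Tnfrsf11a at 17.9 and 19.8, Tnfrsf25 at 7.05 and 7.17 and Tnfrsf23 at 5.47 and 6.44. The lesional log2 ratios of Tnfrsf19 were −0.02 (−0.20 to 0.15) and 0.05 (−0.22 to 0.30), and those of Tnfrsf21 0.33 (0.17–0.48) and 0.18 (−0.08 to 0.42). Tnfrsf23 gave −0.15 (−0.71 to 0.34) and −0.69 (−1.72 to 0.08), the latter past the limit on 12 lesional UMIs (3.83 CPM).

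Tnfrsf9 was lower in lesional excitatory neuron-like nuclei of both libraries, at 1.32 against 2.80 CPM (10 and 110 UMIs; log2 ratio −1.02, −2.19 to −0.15) and 0.957 against 2.88 CPM (3 and 110 UMIs; −1.37, −3.89 to −0.003). It met the minimum through the parenchyma, where it is high, so these values are given as a description alone. Tnfrsf8 was higher in the lesion of the library labelled control (0.75, 0.19–1.27), where 16 of its 40 lesional UMIs came from 1 nucleus, and gave −0.22 (−1.81 to 0.85) in the other. Each ligand was lower in parenchymal excitatory neuron-like nuclei than in the lesional classes that led it. Tnfsf13b stood at 1.27 and 1.57 CPM, Tnfsf12 at 0.890 and 1.07 and the antisense Tnfsf13os at 1.86 and 1.60. Tnfsf13 stood at 0.280 and 0.523, Tnfsf10 at 0.204 and 0.209, Tnfsf8 at 0.102 and 0.183 and Tnf at 0.0509 and 0.157 CPM, and Tnfsf11 had 0 and 1 UMI.

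Other receptors in these neurons were Tnfrsf1a at 0.229 and 0.183, Tnfrsf1b at 0.483 and 0.707, Tnfrsf4 at 1.20 and 1.15, Tnfrsf10b at 0.433 and 0.419, Tnfrsf11b at 0.865 and 0.654, and Tnfrsf12a at 0.916 and 1.20 CPM. The remaining ones were Tnfrsf22 at 0.560 and 0.523, Tnfrsf13b at 0.305 and 0.209, Tnfrsf26 at 0.153 and 0.236 and Tnfrsf14 at 0.0509 and 0.0523 CPM.

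Inhibitory neuron-like nuclei gave 0 of 3 members past 1.5-fold in the library labelled control, against 29.1% of genes, and 1 of 3 in the other, against 31.7%. That member was Tnfrsf19, at 9.65 in the lesion and 17.4 CPM in the parenchyma. Myeloid-like nuclei, compared in the library labelled Cxcl12-cKO with 46 parenchymal nuclei, gave 8 of 15 past 1.5-fold, against 59.9% of genes. Of the 5 higher in the lesion, Tnfsf8, Tnfsf10, Tnfsf13 and Tnfsf13os had no parenchymal UMI, met the minimum through the lesion and have ratios that rest on the 0.5 counts added, so nothing is read from the count. Tnfrsf1a stood at 19.3 CPM in the lesion and 81.0 CPM, from 8 UMIs, in the parenchyma (log2 ratio −2.15, −3.09 to −0.83). Tnfrsf11a stood at 267 and 172 CPM (0.59, −0.05 to 1.42), Tnfrsf1b at 177 and 132 CPM and Tnfrsf21 at 142 and 132 CPM.

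The wider pathway was read from lists of family members with other symbols, adaptors, kinases, NF-κB subunits and shedding enzymes. In lesional fibroblast-like nuclei, 0 of 1 tested ligands with other symbols, 2 of 6 receptors, 1 of 15 adaptors and ubiquitin enzymes, 0 of 10 death and kinase genes, 0 of 10 NF-κB genes and 1 of 4 shedding genes passed 1.5-fold, all in the direction of the library labelled Cxcl12-cKO, where 6.96% of all genes passed. In myeloid-like nuclei none of the 1, 5, 14, 10, 10 and 3 tested passed, against 7.37% of all genes. In astrocyte-like nuclei 1 of 4 receptors (Ltbr), 1 of 12 adaptors (Tnfaip3) and 1 of 4 shedding genes (Rhbdf1) passed, all higher in the library labelled Cxcl12-cKO, and none of the other lists, against 11.3% of all genes. These 3 were also named after their values were seen, with log2 ratios of 0.59 (−0.29 to 1.53), 0.68 (−0.18 to 1.61) and 0.68 (0.14–1.26). The 2 receptors and the adaptor past the limit in fibroblast-like nuclei, named here after their values were seen, were Eda2r, an ectodysplasin receptor (6.20 and 12.3 CPM, log2 ratio 0.98, 0.61–1.37), Relt (1.25 and 2.09 CPM, 0.72, −0.15 to 1.66) and the TRAF adaptor Traf2 (19.3 and 29.2 CPM, 0.60, 0.38–0.82). The receptors with the most UMIs over all nuclei kept, the death receptor Fas (16.7 and 18.5 CPM) and the costimulatory Cd27 (11.6 and 9.499 CPM), did not reach it. The list medians in fibroblast-like nuclei ran from −0.42 for the ligands, which was Eda alone (279 and 208 CPM), to 0.37 for the receptors.

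Rhbdf2 is a partner of the enzyme that sheds TNF from the cell surface. Among pathway genes with at least 40 UMIs over both libraries, it alone was past 2-fold in fibroblast-like or myeloid-like nuclei. It stood at 5.71 and 11.8 CPM in fibroblast-like nuclei, a log2 ratio of 1.04 (0.66–1.44), with 1.44 in female and 0.85 in male mice. Genes with fewer UMIs, such as Edaradd in myeloid-like nuclei, were past 2-fold but were not counted. The sheddases themselves differed little, with Adam17 at 83.1 and 81.1 CPM and Adam10 at 218 and 191 CPM. Among the genes with the most UMIs in the other lists, Traf3, an adaptor that restrains NF-κB, stood at 128 and 151 CPM, Cyld, a deubiquitinase, at 79.8 and 76.4, Tab2 at 254 and 234, Map3k5 at 125 and 122, Nfkb1 at 293 and 294 and Chuk at 97.9 and 92.8 CPM.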

How the data were processed

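Nuclei were isolated from lesion and parenchyma, tagged, mixed and sequenced as 3′ single-nucleus RNA libraries. The UMI counts per gene and nucleus were deposited by the authors as raw matrices, made with Cell Ranger 9.0.0 on GRCm39 per the submitters' processing notes. The sources used here do not state whether introns or strand were used in counting.

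Barcodes between percentiles 2.5 and 97.5 of UMIs and genes (757.2–36243.8 UMIs and 584.2–6418.6 genes) with at most 8.75% mitochondrial UMIs were kept. Clusters (Python 3.11.15, scanpy 1.11.5; 3000 variable genes, 30 principal components, 20 neighbours, Leiden resolution 0.25) were built without 69 genes, the TNF superfamily included. A cluster was named from the list with the highest mean log2 fold where at least 3 of its markers were raised, that mean was at least 0.5, no other list had more markers among the 10 leading genes and the nuclei were not shallow without a leading marker, limits set after the clusters were seen. Doublets were left in, and alternatives removed the top 10% by Scrublet score or the nuclei with both Xist and Y-linked UMIs. Nuclei with UMIs of only Xist or only Y-linked genes were assigned to the female or male mouse.

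Counts were summed per library, region and class and given as CPM with exact Poisson intervals. Ratios were taken after adding 0.5 counts, with intervals from the exact binomial distribution, and shares have exact binomial intervals. UMIs mark molecules, but all intervals cover counting error only. Thinned shares, other than in the ranking of classes, are the mean over all draws of 1000 UMIs per nucleus. No p-value was computed, because each genotype had 1 library. The ratios and their intervals were checked on simulated Poisson counts, the model that the intervals assume. Clustering and naming were not part of that check.

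The members, marker lists and pathway lists were chosen with earlier results of these data known. Values were given for members with at least 100 UMIs and for members past 1.5-fold with at least 40 UMIs in a class, and the 4 members with fewer UMIs were accounted for with their values. From each pathway list at most the 2 genes with the most UMIs and those past 2-fold with at least 40 UMIs were named, with the exceptions marked in the text. Alternatives changed the clustering resolution, the naming of nuclei, the removal of doublets, the weighting of nuclei, the minimum count and the mouse.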

Additional observations from a re-analysis of the deposited data

Results flagged for a closer look

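Female and male mice moved in opposite directions for 3 pairs of member and class, each by more than 1.5-fold. Each direction comes from 1 mouse per genotype and the difference was not tested. Tnfrsf12a in lesional myeloid-like nuclei gave a log2 ratio of the library labelled Cxcl12-cKO over that labelled control of 0.68 in female and −1.77 in male mice. Tnfrsf8 in excitatory neuron-like nuclei gave 1.44 from 3 and 5 UMIs in female mice and −2.21 from 33 and 1 UMIs in male mice. Tnfrsf11a in endothelial-like nuclei gave 1.00 in female and −2.42 in male mice.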

How the results depend on the processing

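Of the main results under each alternative, 37 values stayed within 1.5 times or counting error and 12 moved, and of the single-gene values 243 stayed, 38 moved and 4 changed direction. The cause was not tested. The number of members past 1.5-fold in fibroblast-like nuclei went from 3 to 5 without nuclei carrying both Xist and Y-linked UMIs, 1 in male mice alone and 9 with no minimum count. In myeloid-like nuclei it went from 2 to 1 at resolution 0.5, 4 in female mice, 1 in male mice and 8 with no minimum. In astrocyte-like nuclei it went from 1 to 2 without nuclei carrying UMIs of both sexes, with nuclei weighted alike and in male mice, and to 12 with no minimum, a setting under which 29.9%, 30.6% and 38.8% of all genes passed in the respective classes. The log2 ratio of Tnfrsf11b between regions in the library labelled control was −4.38 at resolution 0.5. The direction changed for Tnfrsf8 in excitatory neuron-like nuclei (1.44) and Tnfrsf11a in endothelial-like nuclei (1.00) in female mice, and for Tnfrsf19 in osteoblast-like (−0.048) and Tnfrsf21 in oligodendrocyte precursor-like nuclei (0.23) when nuclei were classed by their own markers. Over the 10 alternatives, Tnfsf8 in fibroblast-like nuclei ran from 1.09 to 1.89 and Tnfsf11 in astrocyte-like nuclei from 1.26 to 1.67, past 1.5-fold in all 10, Tnfrsf1b from 0.32 to 1.19 (6 of 10) and Tnfrsf21 from 0.10 to 1.82 (8 of 10). Depth limits the rare ligands: Tnf, Tnfsf11 and the lymphocyte receptors rest on few UMIs per class. No paired analysis was possible because each genotype had 1 library and the replicate numbers follow the order of the samples alone. The ratios within each sex set 1 mouse against 1 mouse and are given as values. Ranking classes by the thinned share put the same class first in both libraries for 16 members in place of 20.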
